A study of Homo sapiens with 82 samples.

Results

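The RNAP2 (RNA polymerase II) sites that HT29 cells gained with rosiglitazone were regions called at both 24 h and 48 h of the drug and not in the DMSO control. A site was the merged span of a replicate 1 and a replicate 2 peak that overlapped by at least 1 bp. A gained site was a 24 h rosiglitazone site that overlapped a 48 h rosiglitazone site and no DMSO site. Of 23884 sites at 24 h of rosiglitazone, 1660 (6.95%) were gained by this definition, out of 34272 RNAP2 regions when the sites of the 5 RNAP2 groups were merged. The sites were chosen by their own RNAP2 calls in DMSO and rosiglitazone, so the RNAP2 values in those libraries are given as a description and were not tested.

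HT29 is an established human colorectal adenocarcinoma cell line. The cells were grown in phenol red-free medium with charcoal-stripped serum and received DMSO carrier, 10 µM rosiglitazone, a PPARG agonist, or 10 µM GW3965, an LXR agonist. A further LXR agonist, T0901317 at 10 µM, was given in RNA-seq only, and its libraries entered the RNA fits below with those of GW3965 without being compared here. RNAP2 and H3K27ac (histone H3 acetylated at lysine 27) were each profiled by ChIP-seq in 5 groups of 2 replicates, which were DMSO, GW3965 at 24 h and 48 h, and rosiglitazone at 24 h and 48 h. PPARG was profiled at 2 h and 48 h of rosiglitazone, LXRB and LXRA at 2 h and 48 h of GW3965, and JunD in DMSO, again with 2 replicates each. LXRA was measured through a FLAG-tagged transgene in cells selected with G418, whereas the other factors were endogenous. The labels of the DMSO ChIP-seq libraries carried no hour, and no label said whether replicates were separate cultures, so the spread between them may be technical. The labels listed input controls shared by RNAP2 and H3K27ac for DMSO and for each drug. They did not say whether both were precipitated from the same chromatin, so H3K27ac in the DMSO and rosiglitazone groups may not be independent of the RNAP2 calls that chose the sites, and the H3K27ac tests carry this limit.

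RNAP2 transcribes protein-coding genes and is also loaded at distal enhancers, so a RNAP2 peak can lie at a promoter, an enhancer or along a transcribed gene body. H3K27ac marks active promoters and enhancers. PPARG binds DNA as a heterodimer with a retinoid X receptor and recruits coactivators with acetyltransferase activity when an agonist such as rosiglitazone is bound, whereas LXRA and LXRB respond to oxysterols and to GW3965. JunD is a subunit of AP1, a factor that commonly occupies enhancers before a nuclear receptor is activated.

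Gained sites were narrower and had lower peak scores than sites called with both DMSO and rosiglitazone. Their median width was 1504 bp, with a range of 365 to 42784 bp, against 2035 bp for the 15694 stable sites, which had DMSO, 24 h and 48 h rosiglitazone calls. The peak score was −10 times the log10 of the p-value that the peak caller gave, and no peak was listed under a score of 100. The lower of the 24 h scores of replicates 1 and 2 had a median of 174 at gained sites and 378 at stable sites. At gained sites this score was below 200 in 61.1%, compared with 19.6% of stable sites and 87.0% of the 3387 sites that had neither a DMSO nor a 48 h call. Gained sites were therefore called closer to the limit of detection than stable ones, and the depth of the ChIP-seq libraries is unknown because the files hold no read counts.

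**Figure D1:**
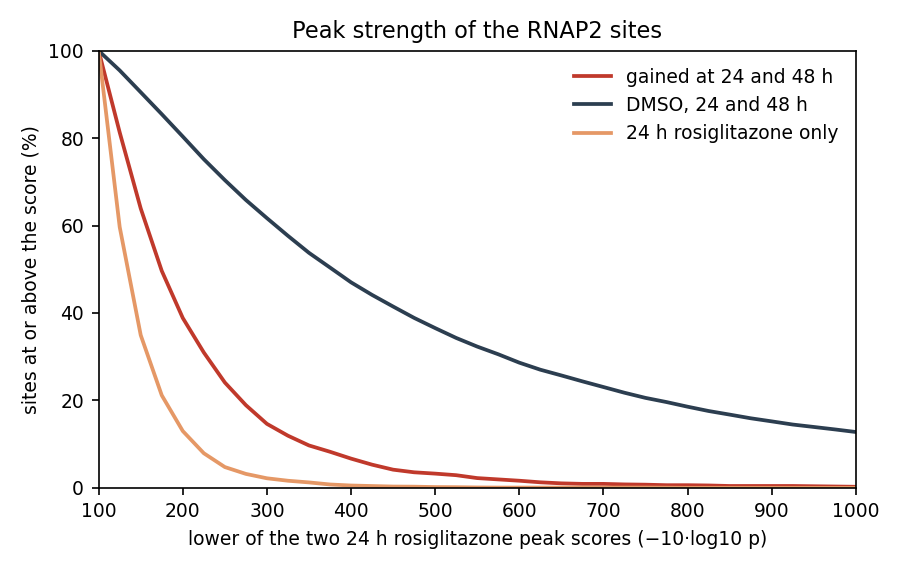
Peak strength of RNAP2 sites. The x axis is the lower of the 24 h rosiglitazone scores of replicates 1 and 2 (−10 times log10 p) and the y axis is the share of sites at or above that score, for sites gained at 24 and 48 h, sites also called in DMSO, and sites called at 24 h alone. The gained sites lie between the other curves, with medians of 174, 378 and 134 respectively.

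Absence of a DMSO site did not mean absence of any DMSO peak. A peak in at least 1 DMSO replicate overlapped 1053 gained sites (63.4%), because a DMSO site required both replicates. It came from replicate 1 alone at 416 sites (25.1%), from replicate 2 alone at 621 sites (37.4%), and from peaks in both replicates that did not touch each other at 16 sites (0.964%). The remaining 607 gained sites (36.6%) had no DMSO peak. Where 1 DMSO replicate had a peak, its score had a median of 150 and a highest value of 779, and 76.2% of these scores were below 200. All 4 rosiglitazone libraries had a peak touching 1647 of the 1660 sites, and the lowest of the 4 scores was at or above 200 at 227 of them.

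Across the 10 RNAP2 libraries, the share of gained sites with a peak was 26.0% and 38.4% in DMSO replicates 1 and 2. With GW3965, replicates 1 and 2 had 26.1% and 49.5% after 24 h, and 52.2% and 41.6% after 48 h. With rosiglitazone it was 100% in both 24 h libraries, and 99.8% and 99.4% at 48 h, as the definition required. The median score of the peaks present was 136 and 163 in DMSO, 153 and 169 at 24 h of GW3965, 223 and 201 at 48 h of GW3965, 233 and 220 at 24 h of rosiglitazone, and 213 and 173 at 48 h of rosiglitazone. Replicates differed by 12.3 percentage points in DMSO and by 23.4 points at 24 h of GW3965, and the 24 h GW3965 libraries overlapped DMSO in this share. Both 48 h GW3965 libraries lay above both DMSO libraries, whose shares the definition held down by barring DMSO sites.

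**Figure D2:**
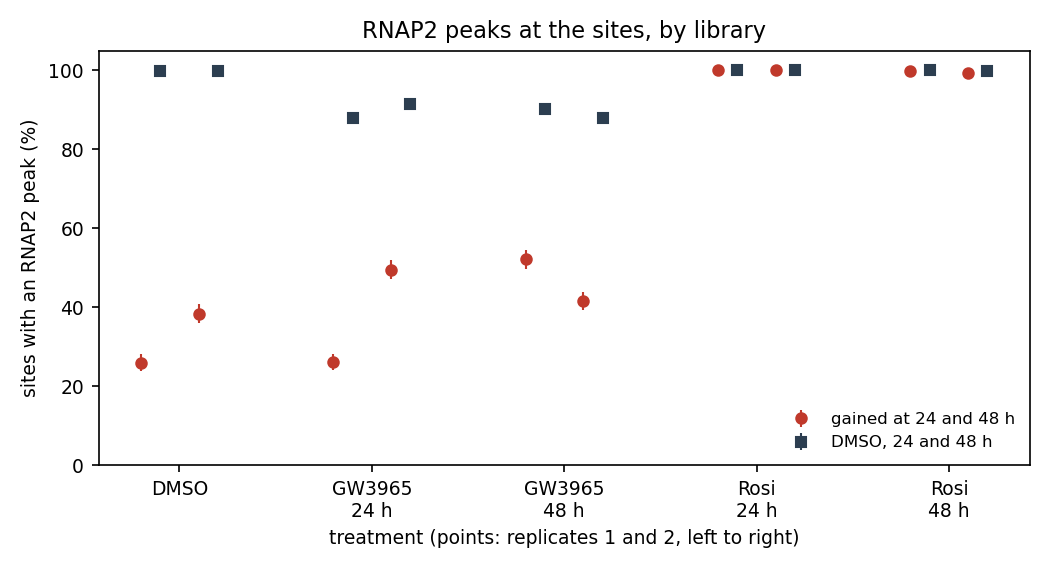
Share of RNAP2 sites with a RNAP2 peak in each library. The y axis is the percentage of sites, points are single libraries (replicate 1 left, replicate 2 right) and bars are 95% Wilson intervals, most of them smaller than the point. Gained sites range from 26.0% to 38.4% in DMSO and from 26.1% to 52.2% with GW3965, while stable sites stay above them in every DMSO and GW3965 library.

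The sites nearest to the limits of the definition were as follows. Among gained sites with a peak in all 4 rosiglitazone libraries, the lowest single score, 100.02, was at chr15:56083288-56084642 (hg19). Its scores were 136 and 192 at 24 h and 104 and 100.02 at 48 h, and DMSO replicate 1 had a peak of 113. The gained site nearest to a DMSO site, chr12:64800217-64803224, lay 12 bp from it, and the next ones lay 35 bp and 38 bp away. Among stable sites, the smallest DMSO overlap was 42 bp, at chr14:35873505-35874633, which had DMSO scores of 542 and 159 and scores of 184 and 113 at 24 h of rosiglitazone. The next smallest overlaps were 124 bp and 327 bp.

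To see how far GW3965 shared the gained sites, they were compared with the RNAP2 sites of GW3965-treated cells. A GW3965 site was present at 297 gained sites (17.9%, 95% Wilson interval 16.1 to 19.8%) at 24 h and at 597 (35.96%, 33.7 to 38.3%) at 48 h. At 238 gained sites (14.3%) GW3965 sites were called at both times, at 359 (21.6%) at 48 h only and at 59 (3.55%) at 24 h only, whereas 1004 (60.5%) had none. Stable sites overlapped a GW3965 site in 83.7% and 85.5% of cases at the same times. The shares were 7.47% and 14.6% at the 3387 sites called at 24 h of rosiglitazone alone, below those of gained sites. Over all 23884 sites at 24 h of rosiglitazone they were 63.5% and 66.3%. The lower 24 h value of gained sites rested on replicate 1. A peak of replicate 2 alone was found at 49.5% of gained sites, within the range of the 48 h libraries. At the 607 gained sites without any DMSO peak, the shares with a GW3965 site were 6.59% at 24 h and 23.7% at 48 h.

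H3K27ac differed between the drugs at gained sites. An H3K27ac peak was present at 37.4% and 35.3% of gained sites at 24 h of rosiglitazone and at 40.2% and 35.2% at 48 h. With GW3965 the values were 26.99% and 22.0% at 24 h and 26.5% and 25.8% at 48 h, and in DMSO they were 13.6% and 21.6%. Every rosiglitazone library was above every GW3965 library, and every GW3965 library was above both DMSO libraries. The mean was 37.0% ± 2.34 (SD, n = 4) with rosiglitazone and 25.3% ± 2.27 (SD, n = 4) with GW3965, a difference of 11.7 percentage points. The two-sided exact permutation test over libraries gave p = 0.0286 (adjusted p = 0.0429 over 6 tests), the smallest value that its 70 splits allow. RNAP2 sites with rosiglitazone and the lack of a DMSO site chose these regions, and no GW3965 site was required. This choice favours rosiglitazone over GW3965 and over DMSO if H3K27ac and RNAP2 go together. Neither this p-value nor the one against DMSO can therefore show a difference beyond that choice. Against DMSO, at 17.6% ± 5.67 (SD, n = 2), the difference was 19.5 points and the exact permutation p was 0.0667, also the smallest that this design of 15 splits can give, so this comparison could not reach 0.05. Of the 5 groups, DMSO replicate 1 had the fewest H3K27ac peaks in all, 23015, and keeping that number of highest-scoring peaks in every library left the rosiglitazone libraries above the GW3965 libraries.

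In points, the difference between drugs was larger at gained sites than at stable and GW3965-gained sites, sets that other RNAP2 calls chose. It was not shown to exceed that at sites called at 24 h of rosiglitazone alone. At the latter 3387 sites, H3K27ac peaks were present at 24.7 to 31.4% with rosiglitazone and 18.0 to 20.7% with GW3965, a difference of 10.04 points. Relative to those sites, the gained sites were 1.66 points higher with rosiglitazone than with GW3965 (exact permutation p = 0.457, adjusted 0.457, n = 4 and 4), a comparison added after the overlaps had been seen. At stable sites, H3K27ac peaks were present at 78.6 to 81.6% of sites with rosiglitazone, 68.9 to 77.3% with GW3965, and 69.1% and 75.6% in DMSO. Taking the share at gained sites less the share at stable sites within each library, the rosiglitazone libraries lay 6.09 points above the GW3965 libraries, with values from -44.1 to -41.4 against -50.8 to -47.0 (exact permutation p = 0.0286, adjusted 0.0429, n = 4 and 4). With H3K27ac peaks of score 200 or more this difference was 2.61 points and no longer passed (exact permutation p = 0.371). Stable sites needed a DMSO site, which gained sites lacked, so the choice of sets favours this direction if H3K27ac and RNAP2 go together. The comparison with stable sites cannot show a difference beyond that choice. At the 927 sites gained at both GW3965 times, H3K27ac was present at 47.5 to 50.3% with rosiglitazone and 50.2 to 57.6% with GW3965. DMSO replicate 1 had a RNAP2 peak at 6.47% of these sites and replicate 2 at 75.6%, so most of them were gained through the lack of a call in replicate 1. Relative to them, the gained sites of rosiglitazone were 16.2 points higher with rosiglitazone than with GW3965 (exact permutation p = 0.0286, adjusted 0.0429, n = 4 and 4). RNAP2 calls of the opposite drugs chose these sets, which favours this direction if H3K27ac and RNAP2 go together. This p-value therefore cannot show a difference beyond that choice. H3K27ac was lower at gained sites than at stable and GW3965-gained sites in all 10 libraries.

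**Figure D3:**
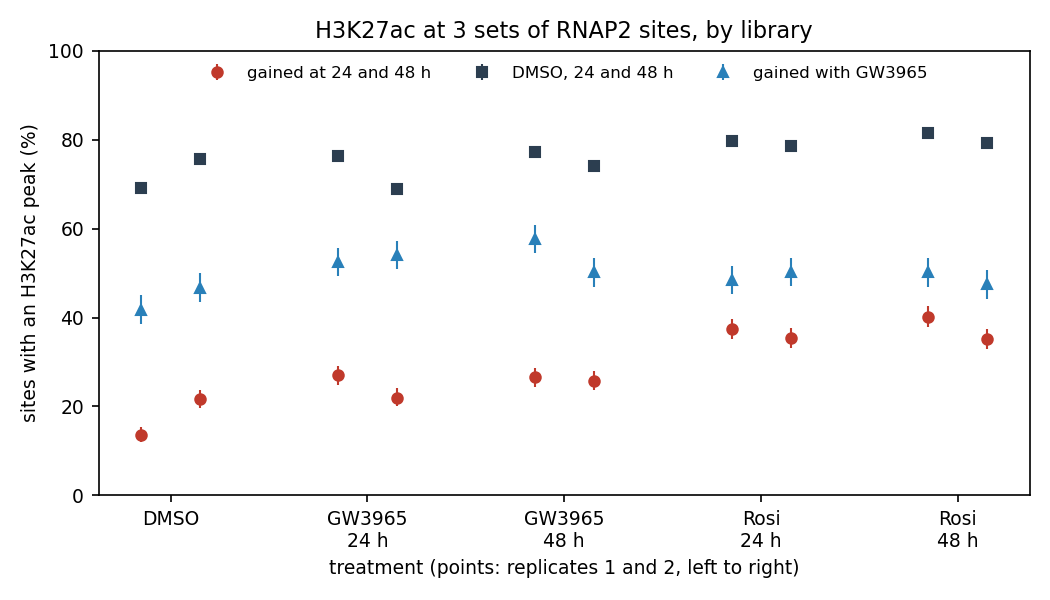
H3K27ac at 3 sets of RNAP2 sites. The y axis is the percentage of sites with an H3K27ac peak, points are single libraries (replicate 1 left, replicate 2 right) and bars are 95% Wilson intervals that cover counting error only. At the sites gained with rosiglitazone the 4 rosiglitazone libraries lie between 35.2% and 40.2%, above the GW3965 libraries (22.0 to 26.99%) and DMSO (13.6% and 21.6%).

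H3K27ac sites, which needed both replicates, divided the gained sites into unequal classes. No H3K27ac site was found in any of the 5 groups at 1006 gained sites (60.6%). At 287 (17.3%) an H3K27ac site was present at both rosiglitazone times and not in DMSO, at 51 (3.07%) at 24 h only, and at 64 (3.86%) at 48 h only. At 213 (12.8%) it was present in DMSO and at both rosiglitazone times, and at 3 sites it was in DMSO and at neither rosiglitazone time. With GW3965, 83 gained sites (5%) had H3K27ac at both times and not in DMSO. Of the 287 sites that acquired H3K27ac with rosiglitazone, 150 had no GW3965 H3K27ac site at either time. Conversely, of 4033 H3K27ac sites gained at both rosiglitazone times, 263 (6.52%) lay at gained RNAP2 sites. These classes were not counted for other sets of RNAP2 sites. An H3K27ac site was present at 13.6% of gained sites in DMSO, and at 33.6% and 34.2% after 24 h and 48 h of rosiglitazone. In the same order, the shares were 10.4%, 27.6% and 23.6% at sites called at 24 h alone. Over all 23884 sites at 24 h of rosiglitazone they were 52.3%, 63.6% and 63.3%, so a rise was not particular to gained sites.

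A PPARG site was present at 449 gained sites (27.05%, Wilson interval 24.97 to 29.2%) at 2 h of rosiglitazone and at 359 (21.6%, 19.7 to 23.7%) at 48 h. At 336 sites (20.2%) PPARG was called at both times, at 113 (6.81%) at 2 h only, at 23 (1.39%) at 48 h only, and at 1188 (71.6%) at neither. The 2 h share was lower than at stable sites (40.6%), and higher than at sites called at 24 h alone (19.9%) and at the GW3965-gained sites (8.74%). These intervals do not overlap, but they cover counting error only, and the sets differ in width and score. Reducing every site to its central 1 kb gave 26.8% at gained and 37.8% at stable sites. PPARG peaks at gained sites had median scores of 392.5 and 368 at 2 h and 358 and 410.5 at 48 h in replicates 1 and 2. These exceeded the medians over all PPARG peaks, which were 258, 247, 250 and 238, whereas the medians at stable sites were 427, 373, 355 and 294.

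LXR sites were less frequent at gained than at stable sites, which was also so for sites called at 24 h alone. A site of either LXR at either time was present at 510 gained sites (30.7%), and PPARG at either time at 472 (28.4%). The LXR count joined LXRA and LXRB, so it pooled more libraries than the PPARG count. LXRB was present at 1.14% of gained sites at 2 h of GW3965 and at 9.34% at 48 h, compared with 19.5% and 42.2% of stable sites. LXRA-FLAG was present at 15.8% and 24.3%, compared with 49.3% and 56.7%. At sites called at 24 h alone, the shares were 0.679% and 3.01% for LXRB and 16.3% and 17.9% for LXRA-FLAG. The LXRB peaks at gained sites were weak, with median scores at 48 h of 141 and 142 against 171 over all LXRB peaks of either library. JunD in DMSO-treated cells was present at 254 gained sites (15.3%, 13.6 to 17.1%), compared with 37.8% of stable and 2.59% of GW3965-gained sites. The JunD share was 11.8% at sites called at 24 h alone. No PPARG, LXR or JunD site was found at 878 gained sites (52.9%), a share not computed for other sets. Over all 23884 sites at 24 h of rosiglitazone, PPARG was present at 35.4% at 2 h and 23.2% at 48 h, and JunD at 30.8%. LXRB was present at 13.9% and 30.8% of them, and LXRA-FLAG at 42.1% and 46.8%. The 48 h PPARG share at gained sites, 21.6%, was thus near that of all sites.

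**Figure D4:**
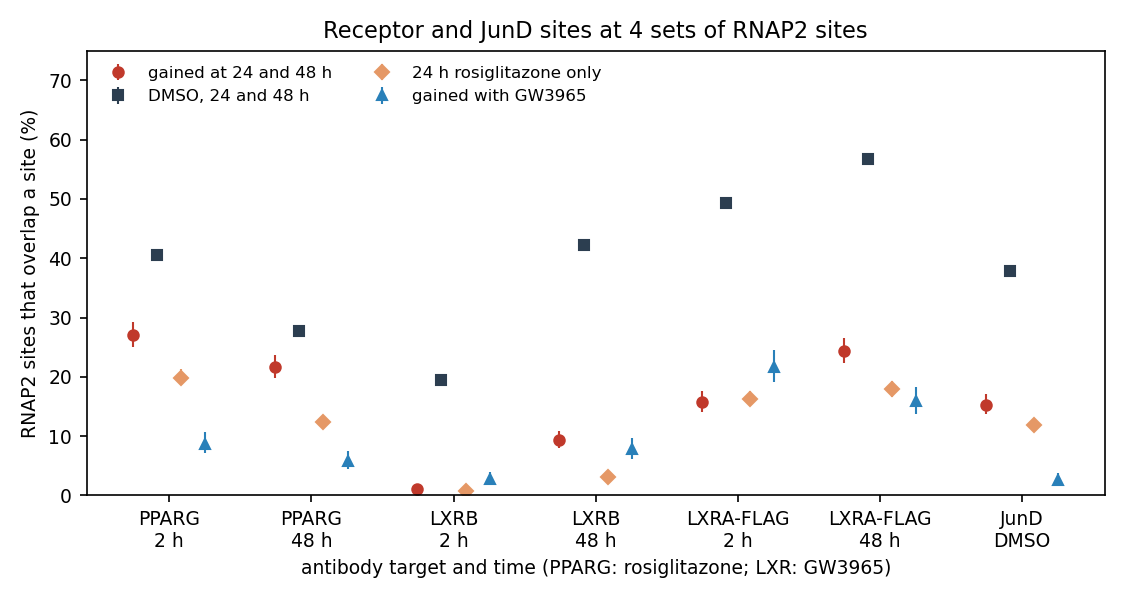
Receptor and JunD sites at 4 sets of RNAP2 sites. The y axis is the percentage of RNAP2 sites that overlap a site of the factor by at least 1 bp, and bars are 95% Wilson intervals that cover counting error only. For PPARG, the sites gained with rosiglitazone (27.05% and 21.6%) lie below stable sites and above the sites called at 24 h alone (19.9% and 12.3%) and the GW3965-gained sites (8.74% and 5.83%).

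Gained sites with PPARG acquired H3K27ac more often than gained sites without it. This split was not made for other sets of RNAP2 sites, so it is not shown to be particular to gained sites. Among the 336 gained sites with PPARG at both times, 15.2% had an H3K27ac site in DMSO, 65.2% at 24 h of rosiglitazone and 64.9% at 48 h. Among the 1188 without PPARG, the values were 13.1%, 23.0% and 23.4%. H3K27ac present at both rosiglitazone times and not in DMSO was found at 147 of the former (43.8%, 38.5 to 49.1%) and at 98 of the latter (8.25%, 6.82 to 9.95%). In the opposite direction, 189 of the 287 sites that acquired H3K27ac (65.9%) had a PPARG site at either time, compared with 147 of the 1006 sites without H3K27ac (14.6%).

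By library, sites with PPARG at either time had an H3K27ac peak in 62.3 to 72.2% of cases with rosiglitazone, 32.0 to 39.8% with GW3965, and 15.5% and 28.2% in DMSO. Sites without PPARG had one in 24.4 to 27.4%, 18.0 to 22.0%, and 12.8% and 18.9%. The excess at PPARG sites was 40.9 points ± 3.39 (SD, n = 4) with rosiglitazone, 16.1 points ± 1.66 (SD, n = 4) with GW3965, and 2.67 and 9.24 points in DMSO. The excess was 24.8 points larger with rosiglitazone than with GW3965 (exact permutation p = 0.0286, adjusted 0.0429), a comparison that was added after the overlaps had been seen. RNAP2 and PPARG calls with rosiglitazone defined the sites and the split, which favours this direction if H3K27ac goes with them. This p-value therefore cannot show a difference beyond that choice. GW3965 libraries were also above DMSO at the sites with PPARG. The sites with PPARG at 2 h alone lay between the others, with 50.4 to 59.3% in the rosiglitazone libraries.

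**Figure D5:**
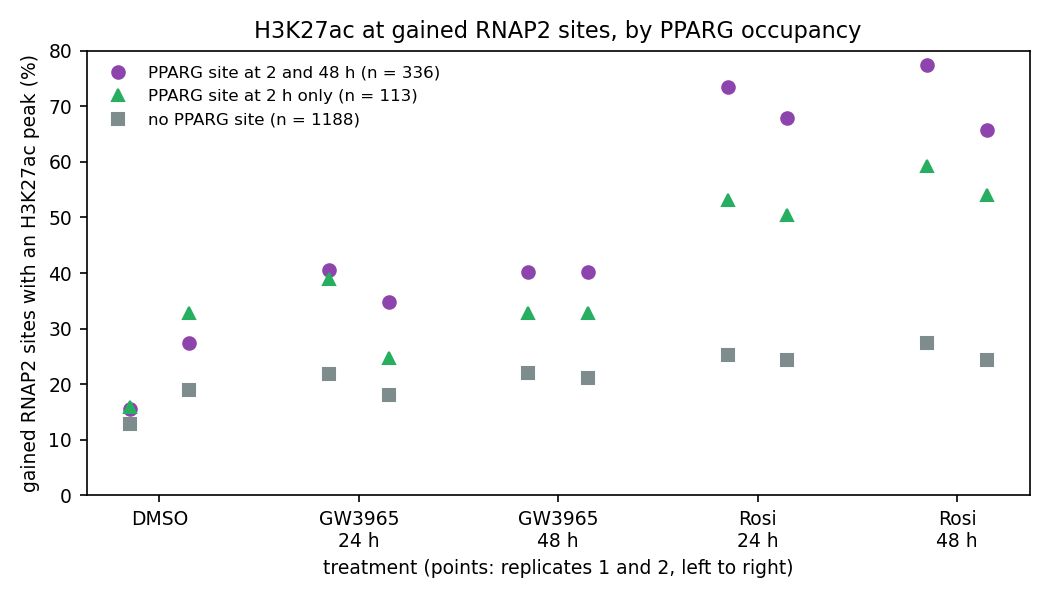
H3K27ac at gained RNAP2 sites split by PPARG occupancy. The y axis is the percentage of gained sites with an H3K27ac peak and each point is 1 library (replicate 1 left, replicate 2 right). Sites with PPARG at 2 and 48 h reach 65.8 to 77.4% with rosiglitazone, sites with PPARG at 2 h only 50.4 to 59.3%, and sites without PPARG 24.4 to 27.4%.

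The 10 gained sites with PPARG at both times and acquired H3K27ac that had the highest RNAP2 scores were between 1168 and 3230 bp wide. The site chr2:191708297-191709731 (hg19) had no RNAP2 or H3K27ac peak in any DMSO or GW3965 library. Its RNAP2 scores were 734 and 548 at 24 h and 647 and 294 at 48 h of rosiglitazone, and its H3K27ac scores were 1217, 482, 811 and 787 in the same order. PPARG scores there were 2791 and 1636 at 2 h and 3100 and 1900 at 48 h, and JunD was already present in DMSO, with scores of 135 and 195.

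The site chr5:169893403-169894756 showed the same pattern without JunD. It had no RNAP2 or H3K27ac peak in DMSO or GW3965 libraries, RNAP2 scores of 498, 353, 299.9 and 333 with rosiglitazone, H3K27ac scores of 666, 253, 223 and 382, and PPARG scores of 2021, 1515, 1618 and 775. At chr6:117761530-117763744 RNAP2 had a DMSO replicate 1 peak of 278 and rosiglitazone scores of 432, 676, 305 and 551. There, H3K27ac peaks were called only in the rosiglitazone libraries, with scores of 538, 201, 700.3 and 272, and PPARG scored 1877, 1972, 2123 and 1444.

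GW3965 shared part of the H3K27ac signal at other sites of this kind. The site of this kind with the highest score in its weakest rosiglitazone library, chr6:113952995-113954389, had RNAP2 scores of 450.2, 688, 446 and 606 with rosiglitazone and 121 to 151 in 3 of 4 GW3965 libraries. Its H3K27ac scores were 643, 515, 1075 and 1039 with rosiglitazone and 317, 223, 608 and 487 with GW3965, and no DMSO library had an H3K27ac peak. At chr6:47135169-47136928 H3K27ac had a single DMSO peak of 114 and scores of 1724, 1139, 2368 and 1010.5 with rosiglitazone, against 157, 295 and 282 in the 3 GW3965 libraries with a peak, and PPARG scored 2598, 2575, 3100 and 2237.

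The gained sites with the highest RNAP2 scores overall were of another kind. Of the 10 sites with the highest score in their weakest rosiglitazone library, none had a PPARG site and 9 had no H3K27ac peak in any library. They were not 10 separate loci, since several lay in the run of gained sites at chr8:121549124-121720438, with widths from 15333 to 42784 bp. A score was the highest of any peak in the span, so wide sites had more room for a high one. JunD peaks were present in DMSO at most of the 10. At chr21:36222079-36232243, which was 10165 bp wide, RNAP2 scored 3100 and 1219.6 at 24 h and 3112 and 1196 at 48 h of rosiglitazone. DMSO had no peak there, GW3965 had peaks of 211, 270.0 and 109 in 3 of 4 libraries, and JunD scored 238 and 241. At chr9:19112555-19115427 RNAP2 scored 1336, 945, 1442 and 896 with rosiglitazone, 108, 149 and 118 in 3 GW3965 libraries, and had no DMSO peak, while LXRA-FLAG scored 658 and 1109.7 at 48 h of GW3965. The neighbouring site chr9:19121961-19125811 had RNAP2 scores of 704, 735, 927 and 725 and no RNAP2 peak in DMSO or GW3965. It was the exception with H3K27ac, which scored 105, 776, 282 and 302 with rosiglitazone and 113, 223 and 170 with GW3965.

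Others of these sites carried RNAP2 with GW3965 as well. At chr4:7059429-7062965 RNAP2 scored 886, 766, 1122 and 632 with rosiglitazone, 576, 726 and 422 in 3 GW3965 libraries, and 256 in DMSO replicate 1. At chr15:59166199-59169906 it scored 618, 964, 1364 and 679 with rosiglitazone, 112 to 382 in all 4 GW3965 libraries, and 126 in DMSO replicate 2. JunD scored 124 and 105 there.

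Width followed the same division. Sites with PPARG at either time had a median width of 1226.5 bp and 3 of 472 exceeded 5 kb, whereas sites without PPARG had a median of 1744 bp and 80 of 1188 (6.73%) exceeded 5 kb. Of the 83 gained sites wider than 5 kb, 3 (3.61%) had PPARG, 12 (14.5%) had H3K27ac at 24 h of rosiglitazone, and 43 (51.8%) had a GW3965 RNAP2 site at 48 h. The corresponding values for the 1577 narrower sites were 29.7%, 34.6% and 35.1%. The lower of the 24 h RNAP2 scores had a median of 190 at sites with PPARG and 167 at sites without.

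RNAP2 with GW3965 also differed by PPARG occupancy. A 48 h GW3965 RNAP2 site was present at 55 of the 336 sites with PPARG at both times (16.4%, 12.8 to 20.7%) and at 522 of the 1188 without PPARG (43.9%, 41.1 to 46.8%). No GW3965 site was found at 262 (78.0%) and 637 (53.6%), respectively. By library, the share with a GW3965 peak was 28.6% in both 24 h libraries and 29.2% and 23.8% at 48 h for sites with PPARG at both times. Sites without PPARG had a peak in 25.4% and 57.7% of cases after 24 h, and in 61.7% and 48.7% after 48 h. The sites without PPARG were thus higher in 3 of 4 GW3965 libraries and lower in 24 h replicate 1, the library that also had the smallest share over all gained sites. They were also wider, and the part of width in this difference was not tested. Of the 607 gained sites without any DMSO peak, 144 (23.7%) had a 48 h GW3965 site and 169 (27.8%) had PPARG at either time.

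JunD marked a subset in which H3K27ac sites were less frequent in DMSO and with GW3965. Of the 254 gained sites with JunD, 13 (5.12%, 3.01 to 8.56%) had an H3K27ac site in DMSO, compared with 213 of 1406 (15.1%, 13.4 to 17.1%) without JunD. With rosiglitazone the shares were 34.3% at both times with JunD, and 33.4% and 34.2% without. With GW3965 they were 8.27% and 10.6% with JunD, and 19.5% and 24.2% without. A PPARG site at either time was present at 108 sites with JunD (42.5%, 36.6 to 48.7%) and at 364 without (25.9%, 23.7 to 28.2%). GW3965 RNAP2 sites at 48 h were found at 14.96% and 39.8%, respectively. JunD was profiled in DMSO alone, and its calls at gained sites were weak, with median scores of 143 and 168 in replicates 1 and 2.

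Gained sites lay at varying distances from PPARG. The median distance to the nearest 2 h PPARG site was 18.3 kb, compared with 10.7 kb for stable sites, 31.2 kb for sites called at 24 h alone, and 44.3 kb for GW3965-gained sites. Of the gained sites, 42.5% lay within 10 kb of a 2 h PPARG site and 67.6% within 50 kb. The nearest DMSO RNAP2 site lay at a median of 10.8 kb, and 10.5% of gained sites lay within 1 kb of one.

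Some gained sites occurred in runs, which were not counted for other sets of RNAP2 sites. When sites less than 50 kb apart were joined, 1221 sites stood alone and 439 (26.4%) fell into 173 runs, of which 10 held 5 or more sites. The longest, chr2:168822615-169015829, spanned 193 kb and held 14 gained sites. None of these had a PPARG site, 12 had a GW3965 RNAP2 site, 11 had no DMSO peak, 1 had H3K27ac at both rosiglitazone times, and the span held no 2 h PPARG site. At chr6:53363299-53406255, 6 gained sites lay within 43.0 kb, all without a DMSO peak or a PPARG site, and 1 with a GW3965 site. The runs of 8 at chr16:89399893-89553803 and of 7 at chr3:58004351-58119098 also held no site with PPARG, and they spanned 9 and 7 DMSO RNAP2 sites. By chromosome, gained sites made up from 4.18% (chromosome 22, 16 of 383) to 10.1% (chromosome 21, 25 of 248) of the 24 h rosiglitazone sites, with Wilson intervals of 2.59 to 6.68% and 6.92 to 14.5%.

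RNA-seq of the same cell line measured the genes of the profiled factors, with 4 libraries per group at 24 h and at 48 h. Gene coordinates of the build of the peaks were not used here, so no gene was assigned to a gained site, and the genes below are not claimed to lie near one. Rosiglitazone was compared with DMSO by edgeR's quasi-likelihood test over all genes, called at an adjusted p below 0.01. At 24 h, 5.81% of 21781 tested genes were called higher and 6.52% lower. At 48 h, 12.3% of 22470 were called higher and 13.1% lower. The epithelial markers EPCAM, KRT8 and KRT18 were expressed at means from 285 to 10727 CPM (counts relative to library total, on the per-1000000 scale) in these groups. PTPRC and VIM, markers of leukocytes and mesenchymal cells, had group means at or below 0.146 CPM with a highest library at 0.323 CPM, whereas COL1A1, another mesenchymal marker, had group means from 3.01 to 6.86 CPM that did not differ past the threshold. Among the other epithelial markers, KRT20 rose by 1.38 and 1.75 on the log2 scale at 24 h and 48 h, VIL1 fell, with changes of -0.52 and -1.004, and CDX2 fell by 0.67 at 48 h and had a 24 h change of 0.33 that did not pass. Their part in the ChIP-seq results was not tested.

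The RNA of the receptors moved in opposite directions. PPARG (ENSG00000132170.15) was 45.5, 41.8, 46.5 and 47.4 CPM in the DMSO libraries at 24 h and 30.4, 32.3, 30.6 and 35.2 CPM with rosiglitazone, with no overlap. Its log2 change was -0.50 ± 0.07 (SE, edgeR adjusted p = 3.84e-05) at 24 h and -0.47 ± 0.08 (edgeR adjusted p = 7.36e-05) at 48 h. NR1H3, which encodes LXRA, rose from a mean of 71.9 to 126 CPM at 24 h (log2 change 0.81 ± 0.08 SE, edgeR adjusted p = 3.48e-07) and from 76.1 to 162 CPM at 48 h (1.09 ± 0.06, edgeR adjusted p = 9.28e-11). NR1H2, which encodes LXRB, rose by 0.26 at 48 h (SE 0.06, edgeR adjusted p = 0.0012) and had a log2 change of 0.15 at 24 h (edgeR adjusted p = 0.078). RXRA, RXRB and JUND did not pass at either time, with log2 changes from 0.06 to 0.30, and those of RXRA and RXRB at 48 h turned negative under library size scaling. POLR2A, the gene of the largest RNAP2 subunit, was not analysed here.

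The PPAR target genes, which encode enzymes and carriers of fatty acid metabolism, were mostly called higher. Of 17 tested, 14 were called higher and 0 lower at 24 h, with a median log2 change of 0.56 against -0.02 over all tested genes, and 13 of 16 at 48 h, with a median of 0.58. At an unadjusted p under 0.05, edgeR had 0 of them lower at either time, as did DESeq2 at its adjusted threshold. ANGPTL4, a lipase inhibitor, was 0.44, 0.191, 0.894 and 0.837 CPM in DMSO and 21.1, 17.7, 21.4 and 18.8 CPM with rosiglitazone at 24 h (log2 change 5.02 ± 0.27 SE). FABP1, a fatty acid carrier, rose from a mean of 0.934 to 18.3 CPM (4.30 ± 0.28 SE). FABP4, an adipocyte fatty acid carrier, had 0 counts in every DMSO library and 17 to 39 counts with rosiglitazone at 24 h, at least 39.6-fold higher against a floor of 3 counts over the DMSO group. The list was chosen with results of these data known, so its direction is not independent evidence.

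Genes of the RNAP2 machinery moved little, and their direction depended on the scaling. Of 11 tested RNAP2 subunit genes, 3 were called higher and 0 lower at 24 h, whereas 2 were called higher and 0 lower at 48 h. Library size scaling shifted the median of all genes to -0.11 at 24 h and -0.19 at 48 h. Under it, 0 subunit genes were called at 24 h, and 1 was higher and 2 lower at 48 h. At an unadjusted p under 0.05, edgeR had 5 higher and 0 lower at each time, and DESeq2 called 3 higher at 24 h and 2 at 48 h with 0 lower. POLR2E, a subunit shared by the 3 nuclear polymerases, rose by 0.51 at 48 h (SE 0.06, edgeR adjusted p = 1.11e-06) and was still higher with library size scaling. The 24 h calls of POLR2F and POLR2L, at 0.33 and 0.22, were lost under 8 and 9 of 13 alternatives, and POLR2I had a 24 h change of 0.21 that did not pass.

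Of 15 genes of RNAP2 pausing and elongation, 0 were called at 24 h, where edgeR had 5 higher and 2 lower at an unadjusted p under 0.05 and DESeq2 called 2 higher. At 48 h, 7 were called higher and 1 lower, but 1 higher and 3 lower with library size scaling. HEXIM1, an inhibitor of the elongation kinase P-TEFb, fell by 0.45 on the log2 scale at 48 h (edgeR adjusted p = 8.42e-05) and was also lower under that scaling. The NELF subunits NELFB, NELFCD and NELFE, which hold paused RNAP2, had changes of 0.25, 0.18 and 0.26 at 48 h, and these calls were lost under 3, 11 and 7 of 13 alternatives, library size scaling included. NELFA, which was named after its value was seen, had the largest 48 h change of the NELF subunits tested, at 0.47 (edgeR adjusted p = 9.93e-06).

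Of 14 coactivators, corepressors and bromodomain readers of histone acetylation, 0 were called higher and 2 lower at 24 h. At that time edgeR had 1 higher and 3 lower at an unadjusted p under 0.05, and DESeq2 called 0 higher and 2 lower. At 48 h, 5 were called higher and 2 lower, and 2 higher and 5 lower with library size scaling. The genes called lower were the receptor coactivators NCOA1, whose log2 change was -0.49 at 24 h and -0.54 at 48 h, and NCOA2, at -0.33 and -0.54. BRD3, a bromodomain reader, had changes of -0.21 and -0.18 that passed only under library size scaling, at -0.31 and -0.36.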

How the data were processed

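ChIP-seq peak lists of HT29 cells were deposited per replicate. Per the labels' processing notes the submitters used Bowtie, MACS and hg19, and TopHat and Cufflinks for RNA, with roles and versions not given in the sources used here. The deposited peak score is −10 times log10 of the MACS p-value, with no score under 100. Read counts for ChIP-seq were not used here, so depth is unknown. The gene tables deposited by the authors hold raw counts, from 21044798 to 51332656 per library.

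Sites were built from overlapping replicate 1 and 2 peaks (at least 1 bp). Intervals on shares of sites are 95% Wilson intervals. They reflect counting error alone and treat neighbouring sites as independent. Shares per library were compared by two-sided exact permutation tests over libraries (Python 3.11.15, numpy 2.4.6, scipy 1.17.1), with Benjamini-Hochberg adjustment over 6 tests. Counts were fitted with edgeR 4.0.16 (R 4.3.3; filterByExpr, TMM, quasi-likelihood, all 16 libraries of a time point) and DESeq2 1.42.0 as an alternative. On simulated counts for the 24 h comparison, 199 of 200 genes changed 2-fold were recovered with 3 false calls among 21333 genes. p-values measure the spread between these libraries only.

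The named regions were the 10 gained sites with the highest RNAP2 score in their weakest rosiglitazone library, the 10 highest in the same order with PPARG at both times and acquired H3K27ac, and those nearest to the limits of the definition. Sites on 1 chromosome of the first list, other members of the second and the next ones are summarised by range. Named genes were those of the profiled factors and, from each of 4 lists, at most the 4 with the largest 24 h change, of which some are not reported here. NELF genes were matched under current symbols or their older ones. The gained sites and all lists were chosen with earlier results of these data known. Alternatives were other peak scores, overlaps and distances, leaving out replicates, a replicate block, other normalizations and filters, and, chosen after seeing the data, the central 1 kb of each site and the comparison with sites called at 24 h alone.

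Same-numbered RNA libraries of DMSO and rosiglitazone did not deviate together (correlations from -0.0459 to 0.0792), so the numbers were not taken to pair them. Gene neighbours and sequences of the sites were not analysed here, since the reference tables are of GRCh38.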

Additional observations from a re-analysis of the deposited data

Results flagged for a closer look

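Of 77 groups of 4 RNA-seq libraries tested for a single library far from the other 3, 2 were picked out, and chance alone picks out about 1 group in 20. RXRB at 24 h was 43.4 CPM in DMSO replicate 4, against 44.4 to 44.6 CPM in the other DMSO libraries. NELFB at 24 h was 181 CPM in DMSO replicate 3, against 205 to 208 CPM. The ChIP-seq groups held 2 replicates each and could not be examined in this way.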

How the results depend on the processing

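The limits are those of peak lists without read counts. A missing peak is a score under 100, not an absence of signal, and 61.1% of the gained sites had a 24 h score below 200, so their number depended on the calls. It was 1024 with peaks of score 200 or more, 607 without any DMSO peak, and 2580 to 5736 when 1 replicate was left out of every group. It stayed within 1.5 times of 1660 with a stricter overlap, 50% of a peak (1199), when DMSO sites within 1 kb were barred (1486), and with equal numbers of peaks per library (1558).

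The H3K27ac differences kept their direction in 99 of 100 alternatives. The exception was the difference less sites called at 24 h alone, 1.66 points, which was -0.47 within 24 h and passed under none. Those that passed no longer did so within 24 h alone, at 11.9 points against GW3965, 5.41 less stable sites, 15.8 less GW3965-gained sites and 24.6 for the PPARG excess, or within 48 h alone, at 11.5, 6.76, 16.6 and 25.03 points, where p cannot fall below 0.333. With the replicate number as a block, the values were 11.7, 6.09, 16.2 and 24.8 points with p = 0.0556 by exact permutation within the numbers, the smallest possible. With H3K27ac scores of 200 or more, the difference less stable sites was 2.61 points. Leaving out 1 library gave 10.6 to 12.3 points against GW3965 and 15.5 to 23.5 against DMSO, and 0.465 to 2.75 points less sites called at 24 h alone.

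At a score of 200 or more, PPARG at 2 h was found at 19.2% of gained sites, LXRB at 0.42% at 2 h and 2.11% at 48 h, LXRA at 6.20% and 10.5%, JunD at 1.93%, and GW3965 RNAP2 at 3.37% at 24 h and 18.1% at 48 h. Within 1 kb, LXRB reached 2.29% and 11.5% and JunD 19.0%. At gained sites without a DMSO peak, LXRB at 48 h was 6.10%, LXRA at 2 h 9.88%, and GW3965 RNAP2 6.59% at 24 h and 23.7% at 48 h. With 1 replicate in place of a site of both, the shares were 29.0 to 38.3% for PPARG at 2 h, 22.0 to 35.2% at 48 h, 1.93 to 3.43% for LXRB at 2 h, 14.2 to 15.4% at 48 h, 16.6 to 27.3% for LXRA at 2 h, 25.5 to 39.0% at 48 h, 20.5 to 25.5% for JunD, and 26.1 to 49.5% and 41.6 to 52.2% for GW3965 RNAP2 at 24 h and 48 h. The cause of these shifts was not tested, beyond a single library calling more peaks than a pair shares.

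For RNA, library size scaling gave 743 genes higher and 2209 lower at 24 h, in place of 1266 and 1421, and 1374 and 5459 at 48 h, in place of 2771 and 2949. The higher share was 25.2% and 20.1%, and no other alternative moved a count by over 1.5 times. The replicate block gave 1119 higher and 1309 lower at 24 h and 2763 and 2949 at 48 h. Under library size scaling the 48 h log2 changes of RXRA, RXRB and POLR2F turned to -0.12, -0.10 and -0.15. Without 1 library, POLR2F at 48 h ranged from -0.040 (without rosiglitazone replicate 1) to 0.075, and POLR2I from -0.046 to 0.023, turning positive at 0.011, 0.020 and 0.023 without DMSO replicate 1, DMSO replicate 3 and rosiglitazone replicate 3, and at 0.0013 with DESeq2. None of these changes passed.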

Other observations

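Of the 927 GW3965-gained sites, 414 (44.7%) overlapped a 24 h and 369 (39.8%) a 48 h rosiglitazone RNAP2 site.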
